A study of Danio rerio with 20 samples.

Results

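Among the cells sorted from the caudal hematopoietic tissue (CHT) of zebrafish embryos at 5 dpf were wells that carried the transcriptome of skin epithelium rather than of blood, and these are described here. SORT-seq places single sorted cells in the wells of a plate and counts their transcripts with unique molecular identifiers (UMIs). A well was taken as a skin epithelial cell when it held at least 1500 UMIs, at least 1000 krt4 counts per 1000000 UMIs (CPM) of the well and at least 3 UMIs summed over epcam, cldni, cldnb and krt91. By this rule 224 of the 2400 cells of the 8 CHT plates were skin cells, of 6116 cells in the whole series. The embryos were ptena-/-ptenb-/- mutants (pten mutants, picked by their phenotype) with 2 plates, set against their siblings with 2 plates, and embryos treated with LY294002, an inhibitor of phosphatidylinositol-3 kinase (PI3K), with 2 plates, set against control embryos, labelled wildtype, with 2 plates. The genotypes of the siblings are not given in the sources used here, nor are the hours of LY294002 for the CHT embryos. All embryos carried the kdrl:mCherry and cd41:eGFP transgenes, which mark endothelium and, at a low level, blood stem cells, and all were raised with PTU to block pigment. The CHTs of many embryos were pooled, dissociated and sorted for kdrl and low cd41 signal without dead cells, so a plate is a sample of a pool. The replicates of all tests were plates, and p-values measure the spread between plates only. The same rule found 350 cells in the 12 plates of the aorta-gonad-mesonephros (AGM) at 36 hpf, which came from control embryos, LY294002-treated embryos or both (mixed plates).

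The skin of the zebrafish larva is a thin epithelium of a superficial (periderm) and a basal layer, with scattered ionocytes and mucous cells between them. Superficial cells are sealed by tight junctions and bear actin-rich microridges, while basal cells express tp63 and rest on a basement membrane through hemidesmosomes built from integrin α6β4 and collagen XVII. Keratins fill the cytoplasm of both layers. Before fibroblasts invade the dermis, the basal epidermis of fish larvae itself secretes type I collagen. None of these cells belongs to the blood lineages that the sort was set to catch.

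The CHT plates held 1852250 to 5349962 UMIs each. A skin cell had a median of 17599 and 16176 UMIs on the pten mutant plates, 6629 and 14771 on the sibling plates, 7823 and 9954 on the LY294002 plates and 7567 and 5874 on the control plates, against 6278 to 12512 in the other wells of the same plates. Sibling plate 1 stood apart, since it gave 5 skin cells where the remaining plates gave 10 to 80, and results that rest on it are given with and without it. A krt4 UMI was present in 89.1% and 98.1% of all wells of the pten mutant plates, against 32.0% to 64.7% of the wells of the 6 remaining plates, and krt4 in the wells not called skin averaged 264 and 307 CPM on the pten mutant plates, against 27.8 to 153 CPM on the remaining plates. On the pten mutant plates the limit of 1000 CPM was thus closer to the krt4 of the other wells.

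The rule divided into a clear and an unclear group. Of the 224 members, 172 had at least 5000 CPM of krt4 (krt4-high cells), and in these the marker genes of skin were high, with medians of 17062 CPM for krt4, 47938 for krt91, 6822 for krt5 and 1664 for epcam. The 52 members between 1000 and 5000 CPM had medians of 1608 CPM for krt4, 2372 for krt91, 243 for krt5 and 161 for epcam. In these 52 wells blood cell genes summed to a median of 11449.9 CPM, against 3868 CPM in the krt4-high cells, and the median depth was 4626 UMIs, against 16561. The skin markers thus did not bear out the label for many of these 52 wells, of which 42 lay on the pten mutant plates. They held 10.5% and 9.35% of the UMIs of all members on those plates, and 0% to 27.6% on the others. Of the wells closest to the limit, the one just inside had 1003 CPM of krt4 and 10073 CPM of the globin gene hbbe2, and the one just outside had 989.7 CPM of krt4 and 6215 CPM of hbbe2, both on pten mutant plate 2. A further 108 wells had 500 to 1000 CPM of krt4, of which 35 and 65 lay on the pten mutant plates. The shares and the gene tests below were also computed for the krt4-high cells.

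**Figure D1:**
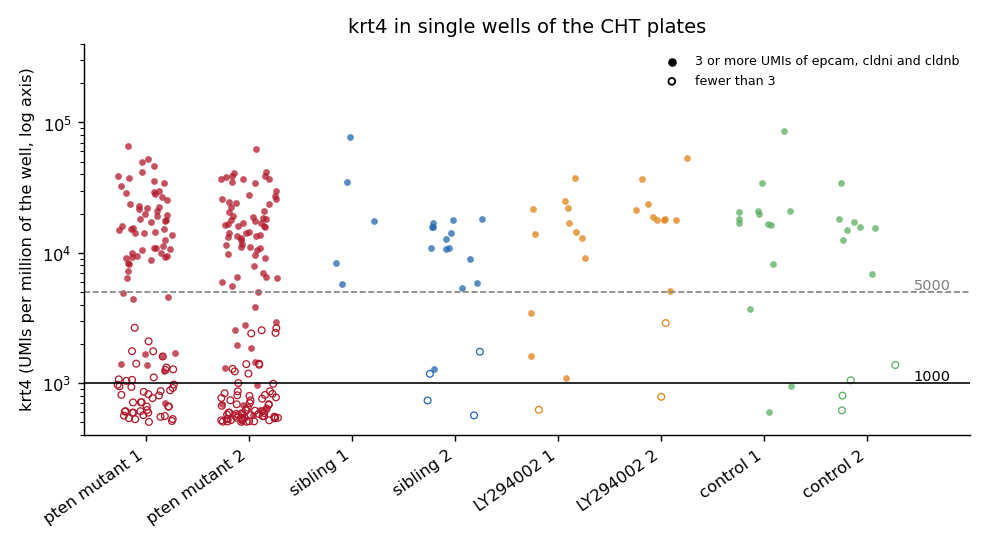
krt4 in CPM of the well (log axis) in every CHT well with at least 500 CPM, by plate. Filled points are wells with 3 or more UMIs over epcam, cldni and cldnb (without krt91), open points wells with fewer, and the lines mark 1000 and 5000 CPM. On the pten mutant plates a cloud of open points crosses the lower line. Wells above 5000 CPM are present on all 8 plates, and that line marks no gap, as the wells next to it stand at 4985 and 5100 CPM.

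Skin cells made up 24.3% (19.9 to 29.3%) and 21.9% (17.9 to 26.4%) of the cells of the pten mutant plates (95% Wilson interval), against 1.40% (0.601 to 3.25%) and 5.1% (3.16 to 8.12%) on the sibling plates. The pten mutant plates averaged 23.1 ± 1.73% and the sibling plates 3.25 ± 2.61% (SD, n = 2 plates each), a difference of 19.8 percentage points. No plate overlapped, but with 2 plates against 2 the exact permutation test (two-sided) cannot fall below p = 0.33, which is the value it gave. On the plates whose cells were sorted on days 8 and 9 in both groups, the shares were 24.3% for pten mutant plate 1 and 5.1% for sibling plate 2. Counting krt4-high cells alone, the pten mutant plates had 17.4% and 16.4%, against 1.40% and 4.14% on the sibling plates, a difference of 14.1 points. The share of wells with any krt4 UMI moved with the genotype too, as given above. The intervals cover counting error only.

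The share differed between LY294002 and control by less than the spread between plates. Skin cells made up 5.43% (3.13 to 9.25%) and 3.93% (2.21 to 6.90%) of the cells of the LY294002 plates, against 4.36% (2.51 to 7.47%) and 3.75% (2.05 to 6.76%) on the control plates, all sorted on day 13. The means were 4.68 ± 1.06% and 4.05 ± 0.437% (SD, n = 2 plates each), the difference was 0.625 percentage points (exact permutation p = 0.667, two-sided, smallest possible 0.33), and without LY294002 plate 1 it was -0.126 points.

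**Figure D2:**
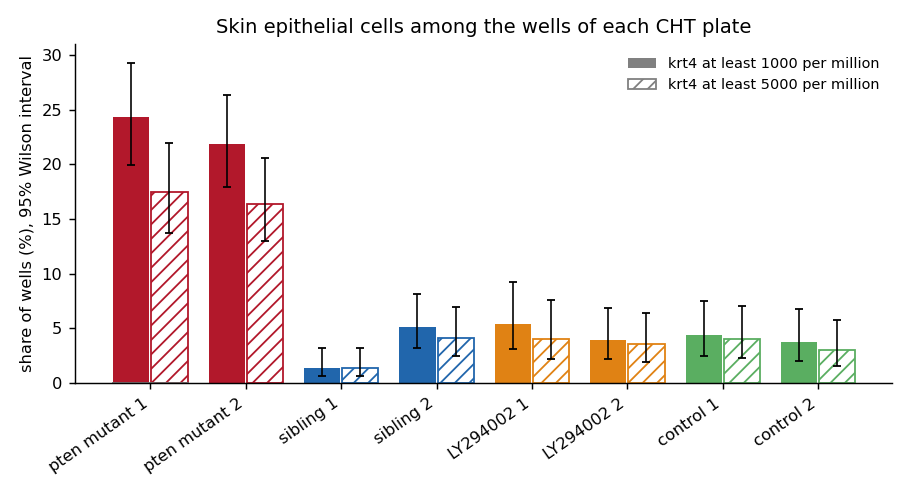
Share of skin epithelial cells among the cells of each CHT plate, in percent, with 95% Wilson intervals (bars from 0). Filled bars use the limit of 1000 CPM of krt4 and hatched bars 5000. The 2 pten mutant plates stand at 24.3% and 21.9%, above all other plates, which lie between 1.40% and 5.43%.

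The genes that distinguished the skin cells from the other wells of the same plates were those of a stratified epithelium, with genes of its basal and of its superficial layer. The comparison is a description without a test, since the same counts chose the cells. It uses the UMIs summed over the skin cells of a plate and over its other wells, as CPM, on the 7 CHT plates with at least 10 skin cells. Of 6161 genes with at least 20 CPM on one side, 615 (9.98%) were at least 4-fold higher in skin cells with no overlap between plates, and 667 (10.8%) were at least 4-fold lower. Genes of the rule were left out of these counts.

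Keratins were among the most abundant transcripts. UMIs mark the 3′ ends of transcripts, so CPM does not scale with gene length. krt91 (part of the rule) averaged 45020 ± 8166 CPM in skin cells, against 401 ± 323 CPM in the other wells (SD, n = 7 plates). krt5, the marker that the rule did not use, averaged 14760 ± 5745 CPM in skin cells and ranged from 6179 to 20417 between plates, against 52.4 ± 23.2 CPM in the other wells, a log2 ratio of 8.11. The basal keratin krtt1c19e averaged 13436 ± 4086 CPM in skin cells, against 116 ± 24.8 CPM. The type I keratins cyt1l and krt17 followed with 832 and 375 CPM in skin cells, against 3.8 and 1.21 CPM. Of 9 keratins described, 5 were at least 4-fold higher in skin cells without overlap and none was lower. krt18, a keratin of simple epithelia, overlapped between the sets, as it ranged from 63.9 to 4071 CPM among the skin plates. The less characterised genes zgc:136930 and si:dkey-183i3.5 were as prominent, with 18004 ± 6382 and 9804 ± 4993 CPM in skin cells, against 139 and 70.25 CPM in the other wells. Actin (actb2 and actb1), tmsb4x, pfn1 and col1a1b were also among the 20 most abundant genes, beside genes of translation, mitochondria and chaperones.

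Outside the lists, several genes were nearly specific to the skin cells among these wells. The galectin gene lgals1l1 had 398 ± 215 CPM in skin cells, against 0.933 ± 0.445 CPM in the other wells. The ammonium transporter gene rhbg had 677 CPM, against 3.65 CPM, and apoeb, an apolipoprotein E gene, 454 CPM, against 2.1 CPM. The chemokine gene cxl34b.11, the keratocan gene kera and zgc:86896 had 379.6, 281 and 426 CPM, against 1.87, 1.45 and 2.59 CPM. These were among the 15 largest ratios of genes with at least 200 CPM.

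Most genes of basal cell adhesion were high in skin cells. Of 14 basal layer genes described, 13 were at least 4-fold higher in skin cells, with a median log2 ratio of 5.94, where the median of all genes described was -0.53. Of 15 superficial layer genes described, 9 were higher and 1 was lower, with a median log2 ratio of 5.39. The transcription factor tp63 had 243 ± 105 CPM in skin cells, against 2.59 ± 2.64 CPM in the other wells. The hemidesmosome genes itgb4, itga6b and col17a1a had 933, 309.7 and 396 CPM in skin cells, against 7.16, 2.51 and 1.81 CPM. The anchoring fibril collagen col7a1 and the laminin chains lamb4 and lama5 had 166, 98.5 and 73.9 CPM, against 0.870, 0.789 and 0.901 CPM. Of 21 junction genes, 18 were higher and none lower, among them the desmosomal cadherins dsc2l and dsg2.1 (199 and 249.7 CPM in skin cells, against 5.29 and 1.54 CPM), the desmosomal plaque gene pkp3a (369.8, against 3.83 CPM) and the claudins cldn1 and cldn7b (635 and 383, against 7.90 and 2.16 CPM). The epithelial splicing factor esrp1 and the transcription factors elf3, tfap2c and dlx3b were among 9 of 14 epithelial regulators that were higher.

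Type I collagen and its companions were strong in skin cells. col1a1b averaged 6323 ± 2399.9 CPM in skin cells, against 98.0 ± 59.9 CPM in the other wells, col1a2 averaged 4465 ± 2201 CPM, against 57.7 ± 34.1 CPM, and the collagen-binding glycoprotein sparc averaged 3832 ± 1862 CPM, against 70.4 ± 65.5 CPM. Of 13 fin mesenchyme and fibroblast genes described, 8 were higher, including lum and dcn, which encode small proteoglycans. Of genes that mark fibroblasts by lineage, pdgfra, twist1a and prrx1b were near 0 in skin cells, with 0.229, 0.304 and 1.93 CPM. prrx1a of the same list had 7 and 9 UMIs on the pten mutant plates and at most 1 UMI on each other plate. The collagen gene col12a1a of that list was not near 0, with 215 and 251 UMIs on the pten mutant plates.

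Early response and heat shock genes were high in the skin cells of every plate. Of 33 such genes described, 19 were at least 4-fold higher in skin cells without overlap. fosb and jun, components of the AP-1 factor, had 399.6 and 521 CPM in skin cells, against 45.1 and 55.3 CPM in the other wells. The stress factor atf3 had 643 CPM, against 86.1 CPM, and the chaperone hsp70.3 had 2151 ± 594 CPM, against 288 ± 275 CPM. Annexin and S100 genes behaved alike, with 9 of 15 higher, for example anxa1a at 1942 CPM in skin cells, against 46.9 CPM.

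Cell cycle and blood genes were low. Of 24 proliferation genes, 18 were at least 4-fold lower in skin cells without overlap and none was higher. The proliferation marker mki67 had 21.3 ± 19.3 CPM in skin cells, against 383 ± 60.5 CPM in the other wells, and the topoisomerase gene top2a had 4.90 CPM, against 116 CPM. Of 30 blood cell genes, 18 were lower, for example rhag of the red cell membrane with 144 CPM in skin cells, against 1383 CPM. The exception was thbs1b, a thrombospondin gene listed with the thrombocyte genes, with 486 CPM in skin cells, against 17.5 CPM. Of the genes behind the sort, itga2b, which encodes cd41, was near 0, with 1.01 CPM in skin cells and 0.825 CPM in the other wells. No value is given here for kdrl. The endothelial genes cdh5, kdr and pecam1 had 3.87, 0 and 0 CPM in skin cells, but sox7 of the same list had 48.0 and 73.0 UMIs on the pten mutant plates. Over the 8 CHT plates the endothelial list summed to 56.6 to 145 CPM in skin cells, against 42.6 to 123 CPM in the other wells. The ionocyte regulator foxi3a was listed at 0 in the skin cells of all 7 plates, and foxi3b averaged 8.33 CPM. Other genes of ionocytes and mucous cells were present. Of 10 described, 1 was at least 4-fold higher in skin cells without overlap and none was lower, with a median log2 ratio of 2.58. Over the 8 CHT plates their list summed to 192 to 1937 CPM in skin cells, against 310 to 590 CPM in the other wells.

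The krt4-high cells did not all carry the genes of the same layer. In 16 of the 172 krt4-high cells at least 3 UMIs of cldne, a claudin of the superficial layer, were found. Apart from cldne, which split the cells, these 16 had medians of 1324 CPM for the ictacalcin icn2, 1946 for krt17 and 2206 for cldnb, and of 0 for tp63, itgb4, col17a1a, col1a2 and sparc. The other 156 cells had medians of 268 CPM for tp63, 918 for itgb4, 147 for col17a1a and 1711 for col1a2, and of 0 for icn2. krt91 stood at a median of 7458 CPM in the cldne cells, against 53724 CPM in the other 156. Basal genes were not absent from the cldne cells, with medians of 3447 CPM for krtt1c19e and 5189 for the summed basal layer list. krt5, which is on the superficial layer list used here, had a median of 1744 CPM. Over all 172 krt4-high cells these medians were 7550, 10584 and 6822 CPM. The cldne cells were also shallower, with a median of 7973 UMIs, against 16561 over all 172, and the part of depth in the values of 0 was not tested. The cells with superficial genes were 3 and 5 on the pten mutant plates, 4 and 0 on the sibling plates, 1 and 1 on the LY294002 plates and 2 and 0 on the control plates. On sibling plate 1 they were 4 of 5 cells, so that its sums hold mainly this layer. The limit of 3 UMIs was chosen after the values were seen, and the medians are a description.

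**Figure D3:**
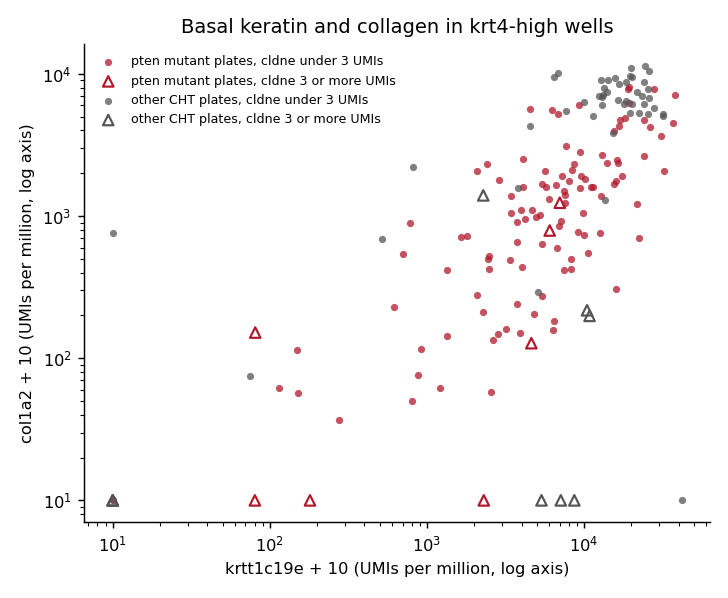
Each point is a krt4-high cell, placed by its krtt1c19e (x) and col1a2 (y) level in CPM plus 10, both on log axes. Triangles are the 16 cells with 3 or more cldne UMIs, which lie mostly low in col1a2, and the cells of the pten mutant plates (red) extend to lower levels of both genes than most cells of the other plates (grey).

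The basal keratin krtt1c19e varied with krt5 and with matrix genes from cell to cell. Over the 172 krt4-high cells, Spearman's rho of krtt1c19e was 0.893 with krt5, 0.718 with col1a2, 0.733 with sparc, 0.254 with the hemidesmosome gene itgb4, -0.263 with cldne and -0.411 with krt18. Within the 116 cells of the pten mutant plates rho was 0.915 with krt5, 0.735 with col1a2, 0.129 with itgb4 and -0.4 with krt18, and within the 56 cells of the other plates 0.724, 0.481, 0.573 and 0.0147 with the same genes. These cells share plates and differ in depth, so the values are descriptive. The medians also differed between these sets, with 6130.2 CPM of krtt1c19e, 5041 of krt5, 1024 of col1a2 and 2421 of krt18 on the pten mutant plates, against 13760, 16693, 6084 and 0 CPM on the other plates. The 56 other cells were 18 from sibling, 19 from LY294002 and 19 from control plates. The LY294002 and control plates were sorted on another day than the mutants, so genotype, treatment and sort day cannot be told apart in these medians. The cells of the pten mutant plates were deeper, with a median of 19619.6 UMIs, against 9302 UMIs on the other plates.

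Next, the skin cells of pten mutants were compared with the skin cells of all other CHT plates together. This reference pools siblings, LY294002-treated and control embryos, so genotype is not the only difference between the groups. The comparison with the siblings alone is given further below. UMIs were summed over the skin cells of a plate and tested with edgeR (quasi-likelihood, Benjamini-Hochberg adjustment). Of 1616 genes tested with 2 plates against 6, 187 (11.6%) had an adjusted p under 0.05, of which 115 (7.12%) were higher and 72 (4.46%) lower in pten mutants. The pten mutant and sibling plates were sorted on days 8 and 9 and the LY294002 and control plates on day 13. The values of the siblings are therefore given for the genes described plate by plate. For others only the range of the 6 remaining plates is given, and some genes are named without values. With the sort period (days 8 and 9, or day 13) as a term, a fit added after the data were seen, 54 genes passed, of which 39 were higher and 15 lower in pten mutants. In sums over cells, another mix of layers and a change within cells cannot be told apart. Without sibling plate 1, 331 genes passed, without control plate 1 or LY294002 plate 2 124 and 122 passed, and with pten mutant plate 1 or plate 2 left out 11 or 16 passed. In krt4-high cells 196 genes passed, 123 higher and 73 lower. The excess of increases depended on the setting. By DESeq2 275 genes passed, 122 higher and 153 lower, and without sibling plate 1 edgeR called 178 higher and 153 lower.

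krt18 stood out, with 4071 and 3937 CPM in pten mutant skin, against 124 and 312 in siblings, 164 and 284 in LY294002-treated and 105 and 63.9 in control embryos. It was higher by 4.34 ± 0.44 (SE) on the log2 scale (edgeR adjusted p = 0.000314), by 4.08 with the sort period as a term (adjusted p = 0.00837) and by 5.44 in krt4-high cells, and the groups did not overlap. In the other wells of the same plates krt18 had 143 and 139.6 CPM on the pten mutant plates, against 7.94 to 18.0 CPM on the remaining plates. It was the only keratin of 7 tested that passed. krt5 had 7151 and 6179 CPM in pten mutants, against 3319.8 and 18541 in siblings, 15395 and 17076 in LY294002-treated and 18562 and 20417 in control embryos, and krtt1c19e had 8069.5 and 7342 CPM, against 2378 and 17096 in siblings, 15316 and 16679 in LY294002-treated and 13503 and 16045 in control embryos. With all plates neither passed (-1.34 on the log2 scale, adjusted p = 0.137 for krt5, and -0.93, adjusted p = 0.315 for krtt1c19e). Without sibling plate 1 both were lower in pten mutants (-1.55, adjusted p = 0.000552, and -1.15, adjusted p = 0.00349, by edgeR).

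Several genes were nearly confined to pten mutant skin among the CHT plates. The filter on low counts kept a gene that was high enough on the 2 pten mutant plates alone. Genes near 0 elsewhere entered the test only through the group where they were high, so their adjusted p-values are no independent support. The same holds below for any gene too low in either group to pass the filter there, whether it rose or fell. The hyaluronan receptor gene cd44a had 251 and 266 CPM in pten mutants, against 12.11 CPM (3 UMIs) on sibling plate 2 and 0 on the 5 remaining plates (edgeR adjusted p = 0.000412). The peroxiredoxin gene prdx1 had 317 and 236 CPM, against 27.5 CPM (2 UMIs) on sibling plate 1 and 0 elsewhere (adjusted p = 0.000685), although in the other wells it was present on all plates, at 95.3 and 98.5 CPM in pten mutants and 36.4 to 77.0 CPM elsewhere. igfbp6b, which encodes a binding protein for insulin-like growth factors, had 261 and 128 CPM, against 12.11 CPM on sibling plate 2 and 0 elsewhere. Of the 10 largest increases without overlap the others, beside krt18, were scpp8, a secretory phosphoprotein gene (432 and 358 CPM, against 0 to 13.7 CPM), lect2l, fgfbp1b, which encodes a binding protein for fibroblast growth factors (142 and 188, against 0 to 19.3 CPM), moxd1, ENSDARG00000074155 and adm2a, an adrenomedullin gene. lepb, a leptin gene, had 170.1 and 220.4 CPM in pten mutants, against 0 and 0 in siblings, 0 and 47.2 in LY294002-treated and 199.8 and 0 in control embryos, and did not pass (adjusted p = 0.187), while without control plate 1 it did (adjusted p = 0.0234).

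Several genes of matrix breakdown and epithelial defence were higher in pten mutant skin. Of 18 such genes tested by edgeR, 7 rose and none fell, where 7.12% of all genes rose, and the list's median was 1.17 on the log2 scale, with 0.01 for all genes. By DESeq2 7 rose and 2 fell, 8 rose and 3 fell without sibling plate 1, and with the sort period as a term 2 rose, timp2b and prdx1, and none fell. Of the genes counted as rising, prdx1 and il11a entered the test through the pten mutant plates alone, so they add no independent support to these counts. The gelatinase gene mmp9 had 3794 and 3687 CPM, against 483 and 559.7 in siblings, 96.6 and 255 in LY294002-treated and 547 and 973 in control embryos, a difference of 2.87 ± 0.49 on the log2 scale (edgeR adjusted p = 0.0043). The collagenase gene mmp13a had 3075 and 3170.1 CPM, against 455 and 283 in siblings, 77.3 and 85.0 in LY294002-treated and 241 and 1142 in control embryos (2.99 ± 0.68, adjusted p = 0.0165). Groups did not overlap for either gene, and with the sort period as a term neither passed (2.79, adjusted p = 0.062 for mmp9, and 3.07, adjusted p = 0.111 for mmp13a). Both genes were also present in the other wells, where mmp9 had 1276 and 749.6 CPM on the pten mutant plates, against 97.9 to 673 CPM. The metalloproteinase inhibitor timp2b (939 and 901, against 13.7 to 273 CPM) and the cytokine il11a (161 and 167, against 0 to 28.3 CPM) rose as well, as did prdx1 and the tetraspanin genes cd63 and cd9b.

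Actin genes were a further group with several increases. Of 26 tested by edgeR, 9 rose and none fell in pten mutants, where 7.12% of all genes rose and 4.46% fell. The list median was 0.63 on the log2 scale, and 2 of the genes, actb1 and flna, passed with the sort period as a term. actb1 had 15377 and 16517 CPM, against 4585 and 4474 in siblings, 3399.9 and 4730.4 in LY294002-treated and 4035 and 4389.8 in control embryos, a difference of 1.79 ± 0.21 (edgeR adjusted p = 0.000685). Filamin (flna) had 933 and 965 CPM, against 234 and 214 in siblings, 271 and 255 in LY294002-treated and 326 and 268 in control embryos (1.75 ± 0.26, adjusted p = 0.00175). Moesin (msna), which links actin to the membrane, and actb2, tagln2, tpm3, arpc5a, gsnb and cotl1 rose too. Of 12 annexin and S100 genes, 4 rose and none fell by edgeR, 4 rose and 1 fell by DESeq2, and with the sort period as a term anxa1a alone passed. anxa1a had 4181 and 4632 CPM, against 1367 and 1123 in siblings, 871 and 738 in LY294002-treated and 1166 and 884 in control embryos (2.0 ± 0.24, adjusted p = 0.000685), and anxa2a, s100v2 and the scaffold gene ahnak were the others. In actb1, flna and anxa1a the sibling plates lay far below the pten mutant plates, but between mutants and siblings alone edgeR called no gene of either list, while DESeq2 called 2 actin genes higher, 1 annexin or S100 gene higher and 1 lower.

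Several genes of amino acid supply were higher in pten mutant skin. Of 24 tested by edgeR, 11 rose and 1 fell in pten mutant skin, where 7.12% of all genes rose and 4.46% fell. The list median was 1.32 on the log2 scale. By DESeq2 11 rose and 3 fell, while with the sort period as a term none passed (adjusted p = 0.0693 for phgdh and 0.0912 for nars). phgdh, the first enzyme of serine synthesis, had 224 and 275 CPM, against 82.5 and 16.2 in siblings, 0 and 18.9 in LY294002-treated and 31.5 and 25.6 in control embryos, a difference of 3.17 ± 0.55 (edgeR adjusted p = 0.0045). Asparagine synthetase (asns), psat1 of serine synthesis, mthfd1l of mitochondrial folate metabolism and the tRNA synthetase genes gars, nars, yars, mars, aars, tars and eprs were the others that rose. Of these genes, phgdh, asns, psat1, mthfd1l and yars were too low on the remaining plates to pass the filter on low counts there. They entered through the pten mutant plates, so their adjusted p-values and their part in the count of 11 are no independent support. nars had 958 and 993 CPM, against 538 and 271 in siblings, 174 and 208 in LY294002-treated and 168 and 230.2 in control embryos (1.79 ± 0.37, adjusted p = 0.0125). In the other wells of the pten mutant plates the same genes stood high too, for phgdh at 143 and 159.5 CPM, against 1.33 to 13.0 CPM, and for nars at 1165 and 1487 CPM, against 309.8 to 419 CPM. The gene that fell, nupr1, encodes a stress-responsive nuclear protein and had 17.8 and 16.8 CPM, against 40.4 to 138 CPM.

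The type I collagen genes col1a1a and col1a2 were among the genes that were lower in pten mutant skin, while col1a1b was not called by edgeR. Of 12 fin mesenchyme and fibroblast genes tested by edgeR, 4 fell and none rose, with a list median of -1.66 on the log2 scale, where 4.46% of all genes fell. By DESeq2 7 fell, as without sibling plate 1, and under each of these settings 153 of all genes tested fell. With the sort period as a term 2 fell, col1a1a and and1. col1a1a had 1769 and 2350.5 CPM, against 8471 and 4962 in siblings, 5089 and 6387 in LY294002-treated and 7116 and 7444 in control embryos, a difference of -1.79 ± 0.30 (edgeR adjusted p = 0.00395). col1a2 had 1288 and 1494 CPM, against 1067 and 5035 in siblings, 4706 and 5897 in LY294002-treated and 6192 and 6639.8 in control embryos (-1.94 ± 0.57, adjusted p = 0.0485), and sparc 1189.8 and 1376 CPM, against 1261 and 4176 in siblings, 4315 and 6207 in LY294002-treated and 4761 and 4797 in control embryos (-1.86 ± 0.51, adjusted p = 0.0386). In both genes sibling plate 1, where 1 cell held most of the UMIs, was as low as the mutants and the other 5 plates were apart. The summed level of the fin mesenchyme list was 9364 and 11030 CPM in pten mutants, against 21934 to 31570 CPM. The actinodin gene and1 of the fin fold had 26.3 and 24.8 CPM, against 5989 and 186 in siblings, 87.0 and 724 in LY294002-treated and 590 and 410.2 in control embryos, with its highest value on sibling plate 1. It missed the threshold by RLE factors (adjusted p = 0.0507). Of 13 basal layer genes col17a1a alone passed by edgeR, while 2 fell by DESeq2, 4 without sibling plate 1 and none with the sort period as a term. It had 133 and 140.1 CPM, against 165 and 303 in siblings, 503 and 662 in LY294002-treated and 620 and 409 in control embryos (-1.83 ± 0.51, edgeR adjusted p = 0.0401), while tp63 and itgb4 did not pass (adjusted p = 0.388 and 0.996). The 3 genes col1a2, sparc and col17a1a missed the threshold when any 1 LY294002 or control plate was left out, as col1a2 did without sibling plate 2 (edgeR adjusted p = 0.058 to 0.0815).

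Other decreases concerned single genes. The selenoprotein P gene sepp1a had 37.7 and 32.8 CPM in pten mutant skin, against 578 and 453 in siblings, 706 and 510.4 in LY294002-treated and 462 and 179 in control embryos, a difference of -3.89 ± 0.55 (edgeR adjusted p = 0.00148). ENSDARG00000077505, which has no symbol here, had 508 and 469 CPM, against 3905 and 2744 in siblings, 8863 and 8692 in LY294002-treated and 9249.6 and 6695 in control embryos. The proteoglycan gene fmodb (24.2 and 21.6, against 123 to 358 CPM), the transporter gene SLC6A13 (9.24 and 17.6, against 89.5 to 137 CPM), the membrane skeleton gene EPB41L3 (5.68 and 8.00, against 84.8 to 261 CPM) and the sodium-proton exchanger slc9a3.2 (4.26 and 4.00, against 18.9 to 465 CPM) fell as well, as did 3 genes without symbols here. slc9a3.2 is on the list of ionocytes and mucous cells, and its 465 CPM came from LY294002 plate 1. There this list summed to 1937 CPM over all skin cells and to 267 CPM in krt4-high cells. Of 3 genes of the list tested in krt4-high cells none passed. Of 9 genes of PI3K and FoxO signaling tested, arrdc3a alone passed by edgeR, at 26.3 and 31.2 CPM, against 96.2 and 178 in siblings, 164 and 85.0 in LY294002-treated and 94.5 and 333 in control embryos (-2.55 ± 0.54, adjusted p = 0.013). It missed the threshold without a filter on low counts and with the sort period as a term (adjusted p = 0.0832 and 0.062), and in the list 1 gene rose and 2 fell by DESeq2, and likewise 1 and 2 without sibling plate 1. txnipa, a gene that FoxO factors can switch on, was too low to test in skin (10.7 and 9.60 CPM, against 0 to 96.2 CPM), while in the other wells it had 7.63 and 9.72 CPM in pten mutants, against 66.7 to 130 CPM. None of 28 early response and heat shock genes passed by edgeR. Of these, 3 were lower at an unadjusted p under 0.05, 2 were called lower by DESeq2 and 3 without sibling plate 1.

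Blood genes also differed between the pten mutant plates and the remaining plates in these sums. Blood cell genes summed to 9023 and 9628 CPM over the skin cells of the pten mutant plates, against 2336 to 7347 CPM on the remaining plates. Of 14 tested, 3 rose, where 7.12% of all genes did, namely alas2 of heme synthesis, the red cell carbonic anhydrase gene cahz and srgn. Of these, alas2 and srgn entered the test through the pten mutant plates. With the sort period as a term 5 rose and none fell, where 39 of all 1616 genes rose. In krt4-high cells the sums were 4602 and 4146 CPM in pten mutants, against 2283 to 6815 CPM. There 2 of 12 blood genes still rose, where 123 of all 1439 genes did, and cahz no longer passed (edgeR adjusted p = 0.171). The part of the blood genes in the remaining differences was not tested. The genes krt18, mmp9, mmp13a, actb1, flna, anxa1a, phgdh, nars, col1a1a, sepp1a and arrdc3a passed in krt4-high cells as well.

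**Figure D4:**
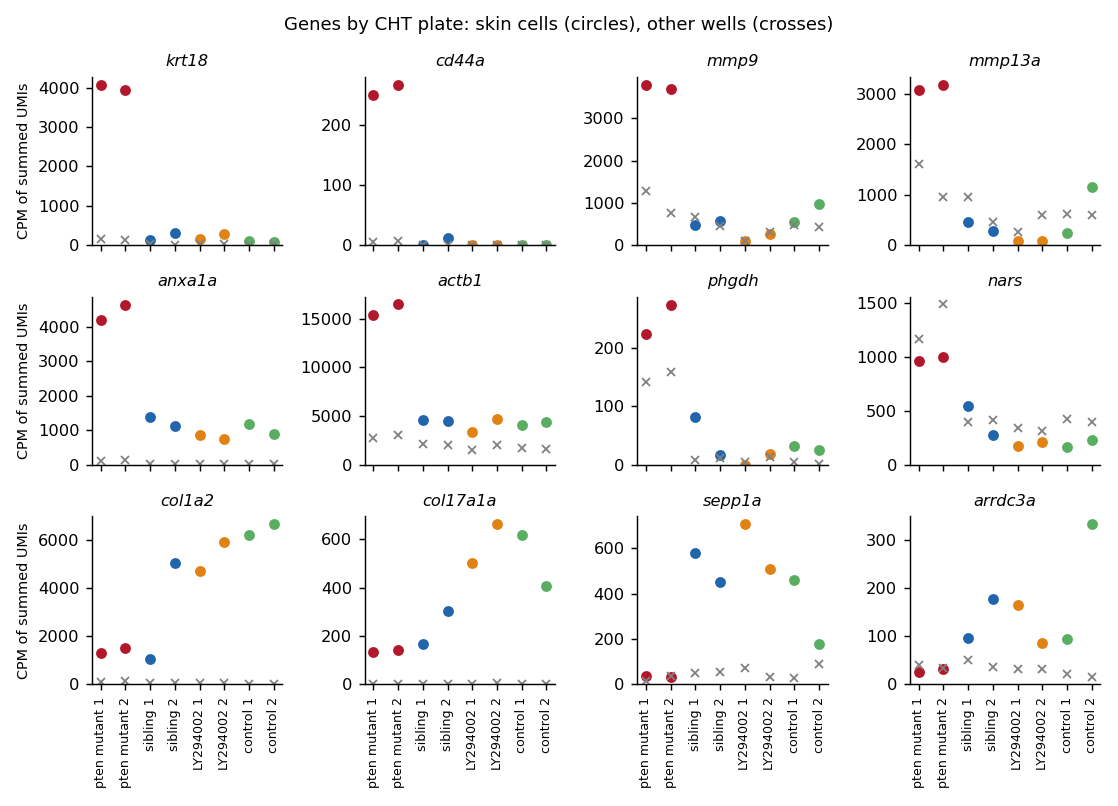
CPM of 12 genes in the summed skin cells (circles) and in the other wells (crosses) of each CHT plate, each panel from 0 on a linear axis. krt18, cd44a, mmp9, mmp13a, anxa1a and actb1 are highest in the skin cells of the 2 pten mutant plates, phgdh and nars are high in both kinds of wells of those plates, and col17a1a, sepp1a and arrdc3a are lowest there, while for col1a2 sibling plate 1 lies with them.

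Set against the siblings alone, fewer genes could be told apart. The comparison needed the limit of 10 skin cells per plate to be lowered to 5, because sibling plate 1 had only 5. Of 6674 genes, edgeR called 18 (0.27%), 10 higher (0.15%) and 8 lower (0.12%) in pten mutants, with 1020 at an unadjusted p under 0.05, and DESeq2 called 74. Without sibling plate 1, 749 genes passed, without sibling plate 2 399, and without pten mutant plate 2 34. Of the named genes above, scpp8 (5.87 on the log2 scale), cd44a, mmp13a (3.19), fgfbp1b, lepb, sepp1a (-3.79), EPB41L3 and fmodb were among the 18. Of these, scpp8, cd44a, fgfbp1b and lepb had at most 3 UMIs on either sibling plate and entered the test through the pten mutant plates. EPB41L3, low in pten mutants, entered it through the sibling plates. Without either pten mutant plate mmp13a, sepp1a, EPB41L3 and fmodb missed the threshold (adjusted p = 0.115 to 0.349). krt18 missed the threshold with 4.09 on the log2 scale (edgeR adjusted p = 0.0529) and passed by RLE factors (0.0391), by DESeq2 (8.18e-06), without a filter on low counts, in krt4-high cells (0.04) and without sibling plate 1 or 2 (2.76e-05 and 5.66e-05). mmp9 missed it with 2.86 (edgeR adjusted p = 0.0609) and passed by RLE factors (0.0486), by DESeq2 (0.000176), without a filter and without sibling plate 1 or 2 (0.000102 and 0.00029).

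Of the increases, alas2, cahz, hbae3 and HBE1 are genes of red cells, and none of them passed in krt4-high cells, where 7 genes were called. Nor did mmp13a, cd44a, fgfbp1b, lepb, EPB41L3, cldnh and qpct (edgeR adjusted p = 0.0507 to 0.0759), while scpp8, sepp1a, fmodb, atp1a1a.4 and mt2 did. The decreases included genes of ionocytes and mucous cells, of which 12 were tested. The sodium pump gene atp1a1a.4 had 0 and 1.60 CPM in pten mutants, against 138 and 101 in siblings, and the claudin gene cldnh 25.6 and 31.3 CPM, against 317 and 321. On the control plates both stood at 0, below the siblings. atp1a1a.4 held 10.0 and 25.1 UMIs on the sibling plates and entered the test through them, so its adjusted p-value is no independent support. The metallothionein gene mt2 and the glutaminyl cyclase gene qpct also fell.

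Next, skin cells of LY294002-treated embryos were set against those of control embryos, and no gene passed. Of 1055 genes tested with 2 plates against 2, edgeR called 0 (0%), with 82 at an unadjusted p under 0.05, of which 19 were higher with LY294002, and DESeq2 called 1. The comparison was added after the data were seen. Without control plate 1 edgeR called 28 genes and without LY294002 plate 1 39. krt18 had 164 and 284 CPM on the LY294002 plates, against 105 and 63.9 CPM on the control plates, a difference of 1.48 ± 0.49 (SE) on the log2 scale (edgeR adjusted p = 0.562). mmp9 had 96.6 and 255 CPM, against 547 and 973 CPM (-1.99 ± 0.54, adjusted p = 0.562), and mmp13a had 77.3 and 85.0 CPM, against 241 and 1142 CPM (-2.94 ± 0.76, adjusted p = 0.562). The groups did not overlap in these 3 genes, but the 2 control plates differed from each other in mmp13a by more than 4-fold. mmp13a passed without control plate 1 or without LY294002 plate 1 (adjusted p = 0.00143 and 0.00448), mmp9 without control plate 1 (0.0364) and krt18 without LY294002 plate 1 (0.0143). The gene nearest to the threshold was inhbaa, an activin subunit gene, with 9.55 ± 0.151 CPM on the LY294002 plates, against 288 ± 9.03 CPM on the control plates (SD, n = 2 plates each, edgeR adjusted p = 0.0649), singled out after its values were seen. None of 12 amino acid genes had an unadjusted p under 0.05, nor did any of 20 actin genes, by edgeR, and DESeq2 called 0 of either list.

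Finally, skin cells of the CHT at 5 dpf were compared with those of the AGM at 36 hpf, chosen by the same rule, on 7 and 6 plates with at least 10 skin cells. Stage, tissue and sort day differ together between these groups and cannot be told apart, and the CHT plates include pten mutants. Of 4562 genes tested by edgeR, 1650 (36.2%) had an adjusted p under 0.05, 901 (19.8%) higher and 749 (16.4%) lower in the CHT. The filter on low counts kept genes that were high enough in either tissue alone. Genes low in the other tissue, such as col17a1a, si:dkey-183i3.5, zgc:136930, and1, plek2, tnw and cdkn1ca, entered through the tissue where they were high. Their adjusted p-values are no independent support, and the counts by list below include such genes. The split depended on the scaling, with 705 higher and 1005 lower by RLE factors and 818 higher and 1150 lower by DESeq2, under which the median of all genes moved to -0.17 and -0.16 on the log2 scale, from 0.01. With the pten mutant plates left out, 716 were higher and 798 lower. Mixed AGM plate 2 stood apart, as blood genes summed to 24418 CPM in its skin cells, against 3694 to 6833 CPM on the 5 remaining AGM plates, and without it 1812 genes passed. Against AGM control plates alone, 777 passed. In krt4-high cells, on 5 plates of each tissue, 1431 passed, 760 higher and 671 lower.

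Most basal layer genes were higher in the CHT. si:dkey-183i3.5 and zgc:136930 had 3328 to 15230 and 9965 to 26857 CPM on the CHT plates, against 0 to 2.53 and 0 to 20.3 CPM on the AGM plates, the largest increases of the comparison. col17a1a had 133, 409 and 662 CPM as the lowest, median and highest CHT plate, against 0, 0 and 1.97 CPM in the AGM. krtt1c19e had 7342, 15316 and 17096 CPM, against 71.2, 531 and 1604 CPM, higher by 5.01 ± 0.64 (SE) on the log2 scale (edgeR adjusted p = 1.3e-05). itgb4 had 506, 946 and 1294 CPM, against 49.6, 140.4 and 245 CPM (3.24 ± 0.32, edgeR adjusted p = 1.13e-06). krt5, of the superficial layer list, had 6179, 17076 and 20417 CPM, against 424, 621 and 1676 CPM (4.86 ± 0.45, edgeR adjusted p = 4.34e-07). None of these genes overlapped between the tissues. Of 16 basal layer genes 10 rose and 3 fell, where 19.8% of all genes rose and 16.4% fell. Their median was 1.12 on the log2 scale, where all genes had 0.01. The 3 that fell were fras1, frem2a and igfbp5b, of which fras1 and frem2a serve the embryonic basement membrane, and without the pten mutant plates 8 rose and none fell. By RLE factors 7 rose and 4 fell. frem2a had 0, 10.4 and 102 CPM, against 4.96, 190.2 and 244 CPM. Of 10 keratins, krt5, krtt1c19e, krt15 and krt17 rose and none fell, while by RLE factors and DESeq2 4 rose, with 1 and 2 falling. krt15 and krt17 overlapped between plates. The chemokine gene cxl34b.11 was also among the largest increases, with 132 to 599.7 CPM in the CHT, against 0 to 5.06 CPM in the AGM.

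Matrix and lipid genes rose as well. Of 13 fin mesenchyme and fibroblast genes 8 rose and 1 fell, where 19.8% of all genes rose and 16.4% fell. By RLE factors 7 of the list rose and 2 fell. col1a1b had 2953, 6379 and 9696 CPM in the CHT, against 672, 1539.9 and 2796 CPM in the AGM (2.56 ± 0.34, edgeR adjusted p = 1.79e-05), and the actinodin genes and1 and and2 were at 24.8 to 724 and 19.3 to 1257 CPM, against 0 to 3.94 and 0 to 7.6 CPM. The fibronectin genes moved apart, as fn1a had 0 to 52.5 CPM in the CHT, against 69.5 to 382 CPM (-3.86 ± 0.52, adjusted p = 2.5e-05), and fn1b rose by 1.46 (adjusted p = 0.00351). Of 7 sterol synthesis genes 5 rose and none fell, beside the same shares of all genes. The receptor gene ldlra had 146 to 302 CPM, against 9.92 to 42.5 CPM (3.79 ± 0.34, adjusted p = 3.01e-07), and the demethylase gene cyp51 52.5 to 174 CPM, against 2.48 to 37.5 CPM (3.2 ± 0.40, adjusted p = 9.8e-06).

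Stress, barrier and cytoskeletal genes moved in both directions, as did all genes tested, of which 19.8% rose and 16.4% fell. Of 31 early response and heat shock genes 9 rose and 3 fell, with hsp70.3 at 1278 to 3045 CPM in the CHT, against 279 to 1065 CPM in the AGM (2.47 ± 0.31, edgeR adjusted p = 9.05e-06). Of 30 actin genes 9 rose and 5 fell, with 6 and 5 by RLE factors. plek2, which binds membrane lipids and actin, had 243 to 458 CPM, against 0 to 27.9 CPM (4.98 ± 0.41, adjusted p = 9.89e-08), while the cofilin gene cfl1 had 98.4 to 192 CPM, against 444 to 1926 CPM (-1.99 ± 0.37, adjusted p = 0.000509). Of 14 annexin and S100 genes 5 rose and 2 fell, of 22 junction genes 5 rose and 2 fell, and of 15 superficial layer genes 5 rose and 2 fell. Of 28 defence genes 12 rose and 2 fell. For mmp9 and mmp13a this rested on the pten mutants, since without those plates the differences were 0.72 and 0.46 on the log2 scale (adjusted p = 0.166 and 0.514). The amino acid genes, 9 of 28 higher and none lower, gave 6 higher and 1 lower by RLE factors and 2 higher and 2 lower without the pten mutant plates.

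Among the genes with the largest decreases in the CHT were those of tenascins, N-cadherin and placode regulators. The tenascin gene tnw had 0 to 9.44 CPM on the CHT plates, against 515 to 849 CPM on the AGM plates, and tnc had 0 to 37.8 CPM, against 63.3 to 791 CPM. N-cadherin (cdh2), the corepressor tle2 and the placode regulators six1b and eya1 had at most 9.66 CPM on any CHT plate, against lowest AGM values of 41.2, 53.2, 27.3 and 24.8 CPM. Of 18 proliferation genes 8 fell and 1 rose, where 16.4% of all genes fell and 19.8% rose. mki67 was at 9.66, 12.8 and 64.0 CPM in the CHT, against 78.7, 129.9 and 244 CPM (-1.99 ± 0.43, edgeR adjusted p = 0.00174). The chromatin gene hmgb2b was at 19.3 to 112 CPM, against 354 to 662 CPM (-2.75 ± 0.29, edgeR adjusted p = 2.32e-06). Of 15 epithelial transcription factors 4 rose, tp63, klf2b, klf3 and elf3, and 4 fell, grhl1, klf6a, tfap2a and foxi3b, where 19.8% and 16.4% of all genes did. By RLE factors and by DESeq2 3 rose, with 4 and 5 falling.

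Genes of other cell types differed between the tissues too. Of 9 ionocyte and mucous cell genes 5 fell and 1 rose (none by RLE factors), with foxi3b at 0 to 44.5 CPM in the CHT, against 0 to 427 CPM in the AGM (-3.49 ± 0.83, edgeR adjusted p = 0.00341), and the sodium pump gene atp1b1b at 0 to 276 CPM, against 14.9 to 3349 CPM (-2.94 ± 0.75, adjusted p = 0.00545). On mixed AGM plate 2 foxi3b was at 0. Of 22 blood genes 9 rose, among them the larval globin gene hbbe2 (246 to 1016 CPM, against 0 to 65.9 CPM), and 8 fell, among them the granulocyte gene lyz (6.40 to 164 CPM, against 906 to 15824 CPM). Of 5 muscle genes 4 rose and none fell, and muscle genes summed to 75.6 to 4369 CPM in the CHT, against 61.1 to 461 CPM. The part of these foreign genes in the remaining differences was not tested. Of 28 PI3K and FoxO genes 3 rose and 2 fell, where 19.8% and 16.4% of all genes did, and by RLE factors 2 rose and 3 fell. By DESeq2 3 rose and 6 fell. In krt4-high cells 3 rose and 7 fell of 27, where 760 and 671 of all 3992 genes did. txnipa had 0 to 77.3 CPM, against 184 to 996 CPM (-4.26 ± 0.57, adjusted p = 2.1e-05), and the cell cycle inhibitor cdkn1ca 0 to 2.40 CPM, against 35.5 to 98.7 CPM.

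**Figure D5:**
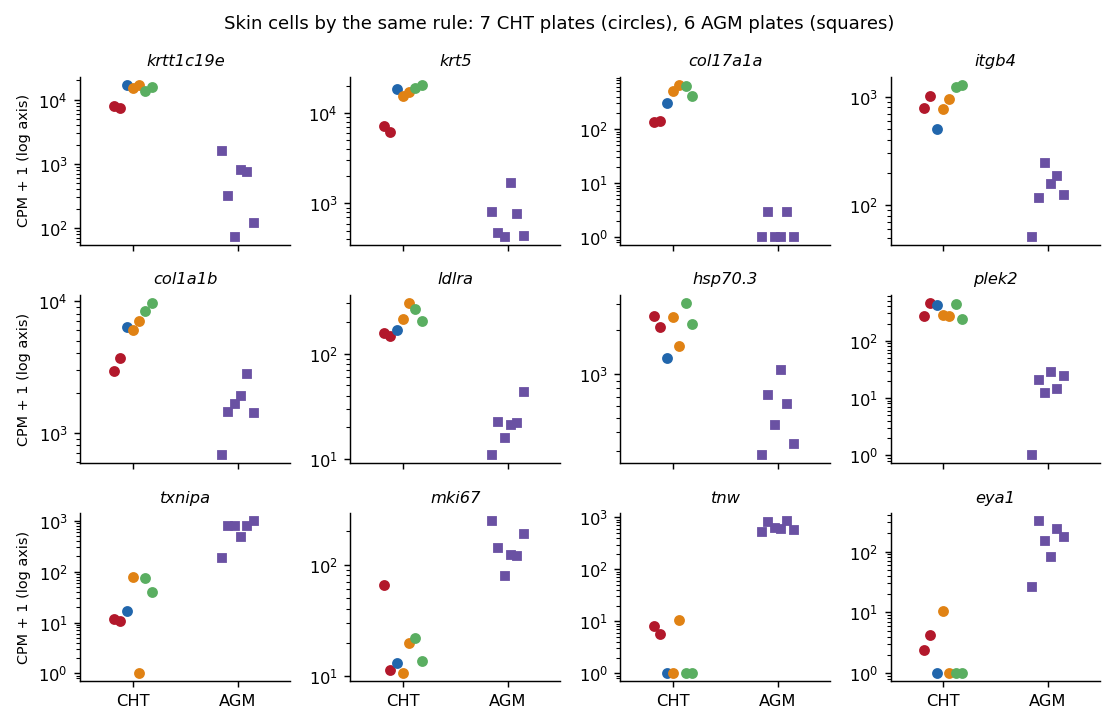
CPM plus 1 (log axes) of 12 genes in the summed skin cells of 7 CHT plates (circles, left) and 6 AGM plates (squares, right). Circles are red for pten mutants, blue for siblings, orange for LY294002 and green for control. krtt1c19e, krt5, col17a1a, itgb4, col1a1b, ldlra, hsp70.3 and plek2 are higher and txnipa, mki67, tnw and eya1 lower in the CHT without overlap.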

How the data were processed

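Single cells of 20 plates of 384 wells were measured by SORT-seq, 8 plates from the CHT and 12 from the AGM. The authors demultiplexed the reads, mapped them to the Zv9 transcriptome (the submitters' processing notes name BWA, without a version) and deposited estimated counts, that is UMIs per gene and well, not normalized. Their high values lie slightly above whole numbers, and how these were adjusted is not given in the sources used here. Spike-ins were left out. The files hold 26651 genes, of which 13578 symbols came from the files and 6331 from a reference table. No wells were identical. Well barcodes are the same set on every plate, so shared barcodes could not be counted. No doublet caller was run. The targeted genes and 1 further gene are not reported here. The labels state that not all wells of the CHT plates were used by the authors, and the plate layout was not used here.

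UMIs were summed over the skin cells of a plate, rounded and compared by the quasi-likelihood test of edgeR 4.0.16 after filterByExpr and TMM scaling, with a Benjamini-Hochberg threshold of 0.05. filterByExpr was given the groups, so a gene near 0 in one group could enter a test through the other group alone. R was 4.3.3, limma 3.58.1, and DESeq2 1.42.0 served as an alternative. Python 3.11.15 with numpy 2.4.6, pandas 2.3.3, scipy 1.17.1 and matplotlib 3.10.9 did the rest. Shares were compared by exact permutation of plates, with p as 2 times the smaller tail. Ratios of skin to other wells used a pseudocount of 1 CPM. In simulated data edgeR recovered 84% of 200 genes changed 4-fold for the CHT against the AGM (4567 genes), 35.5% for mutants against siblings (6679 genes), 82% for mutants against all other CHT plates (1621 genes) and 63.5% for LY294002 against control (1060 genes).

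The fit of pten mutants against siblings was meant for plates with at least 10 skin cells and was run at 5, as sibling plate 1 had 5. Named genes were the 10 largest changes in each direction that passed without overlap, for skin against other wells the 20 highest and the 15 with the largest ratio at 200 CPM or more, and genes of the lists. Of 649 listed genes 519 were found. The members and the lists were chosen with earlier results of these data known.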

Additional observations from a re-analysis of the deposited data

Results flagged for a closer look

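In groups of 6 plates a value was looked at again when its gap to the nearest other plate took more than Dixon's share of the whole range. This was so for 15 of 42 groups. A chance rate of about 1 in 20 holds only for normally distributed values, which was not tested for these CPM. A few UMIs on a single plate were enough to meet the rule, as for cd44a, igfbp6b and prdx1. The count of 15 therefore cannot be read as an excess over chance. The values are given without an explanation.

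Among the skin cells of the AGM, LY294002 plate 4 stood alone with and2 at 7.6 CPM (nearest 0), ENSDARG00000088636 at 86.2 CPM (nearest 12.4), hbbe2 at 65.9 CPM (nearest 11.2) and hbbe3 at 973 CPM (nearest 318). Mixed AGM plate 2 stood alone with cdh2 at 139 CPM (nearest 69.6), cd34 at 408 CPM (nearest 218) and cpa5 at 505 CPM (nearest 137).

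Among the 6 CHT plates without pten mutants, sibling plate 1 stood alone with prdx1 at 27.5 CPM (nearest 0), adm2a at 41.2 CPM (nearest 4.04) and and1 at 5989 CPM (nearest 724). Sibling plate 2 did so with cd44a at 12.11 CPM (nearest 0) and igfbp6b at 12.11 CPM (nearest 0), control plate 2 with ENSDARG00000074155 at 38.3 CPM (nearest 9.44), and LY294002 plate 1 with slc9a3.2 at 465 CPM (nearest 102) and EPB41L3 at 261 CPM (nearest 128).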

How the results depend on the processing

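The number of members was 189 to 332 with other limits for krt4 of 500 or 2000 CPM, 172 at 5000 CPM and 195 without krt91 in the epithelial sum. The difference in share between pten mutants and siblings was 14.1 to 33.8 percentage points over these limits and 18.0 to 21.7 points with 1 plate left out. That between LY294002 and control was -0.126 to 1.38 points with 1 plate left out, the negative value without LY294002 plate 1.

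For pten mutants against all other CHT plates the count of 187 was 304 without a filter on low counts, 54 with the sort period as a term (chosen after seeing the data), 331 for plates with at least 10 skin cells and 11 to 331 with 1 plate left out. For pten mutants against siblings the count of 18 was 29 by RLE factors, 74 by DESeq2, 291 without a filter, 7 at 5000 CPM of krt4 and 26 to 749 with 1 plate left out, and the change of col17a1a was -1.29 to 0.21 with 1 plate left out, the positive value without sibling plate 2 (adjusted p = 0.828). For LY294002 against control the count of 0 was 20 without a filter, 2 at 5000 CPM of krt4 and 0 to 39 with 1 plate left out. For the CHT against the AGM the count of 1650 was 2712 without a filter, 2798 for plates with at least 20 skin cells, 777 against AGM control plates and 1370 to 1812 with 1 plate left out. Apart from fewer plates or more genes tested, the cause of these shifts was not tested. With 1 plate left in a group its spread is assumed to be that of the others.

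No paired analysis was possible because the labels give the plates no replicate numbers, and 1 pair alone, pten mutant plate 1 and sibling plate 2, shared its sort days. Levels under about 10 CPM rest on few UMIs on the 6 CHT plates without pten mutants, where the summed skin cells held 72730 to 247668 UMIs a plate.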

Other observations

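In the AGM the share of skin cells followed the sort period. On the 6 plates sorted on days 1 to 4 it was 0% to 3.52% (19 of 1781 cells), and on the 6 plates sorted on days 10 to 12 it was 5.74% to 24.9% (331 of 1935 cells), with control and LY294002 plates in both periods. The CHT plates were sorted on days 8, 9 and 13. This was noticed after the values were seen and was not tested.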
